A study of Mus musculus with 24 samples.

Results

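The serotonin (5-HT) receptor genes of the mouse prefrontal cortex (PFC) were followed across 24 RNA-seq libraries. The members were chosen by symbol from a list of 10 receptor genes, and 8 of the 10 have a row in the normalized count table, which holds 14074 genes. These are Htr1a, Htr1b, Htr1f, Htr2a, Htr2c, Htr3a, Htr5a and Htr7. Htr1d and Htr4 were not analysed here. The animals were adult male C57BL/6 mice, 1 library each, in 6 groups of 4. Control animals had not been defeated and were housed individually before the experiment. The stressed animals had gone through chronic social defeat stress (CSDS) by CD1 males for 30 days, and were sorted by their behaviour into a passive coping (PS) and an active coping (AS) phenotype. Each phenotype received saline (CON_SAL, PS_SAL and AS_SAL) or 2 mg/kg dexamethasone (DEX), a synthetic agonist of the glucocorticoid receptor (CON_DEX, PS_DEX and AS_DEX), and the tissue was taken 6 h later. The dissected block held secondary motor, anterior cingulate, orbital, prelimbic and infralimbic cortex together.

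Serotonin reaches the PFC through axons of raphe neurons, so cortical tissue carries the receptors but not the cell bodies that make the transmitter. Htr1a, Htr1b, Htr1f and Htr5a encode receptors that couple to inhibitory Gi/o proteins, and the 5-HT1A receptor opens potassium channels and quiets pyramidal cells and interneurons. Htr2a and Htr2c encode Gq-coupled receptors that activate phospholipase C, and the 5-HT2A receptor excites pyramidal cells and is the target of classic hallucinogens. Htr3a encodes a subunit of the only ligand-gated ion channel among serotonin receptors, and marks a class of superficial interneurons. Htr7 encodes a Gs-coupled receptor that raises cAMP.

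Reads recovered on genes ran from 21121869 to 59439645 per library, and the members had from 30 reads (Htr1f in AS_SAL mouse 8) to 5812 reads (Htr2a in AS_DEX mouse 42) in a library. Depth differed by phenotype, and the group medians were highest in AS animals. They were 22869703 in CON_SAL, 23492571 in CON_DEX, 24008145 in PS_SAL, 24187702 in PS_DEX, 34242531 in AS_SAL and 37876626 in AS_DEX. Each of the 3 DEX targets used to check the labels, Fkbp5, Tsc22d3 and Sgk1, was higher in all 4 DEX libraries than in all 4 saline libraries of each phenotype, and the log2 fold change of Fkbp5 was 2.26 for the control, 2.00 for the PS and 1.91 for the AS animals. The markers of pyramidal and GABAergic neurons were all present, as 6 of 6 and 8 of 8 genes, and none of the 4 markers of serotonergic neurons (Tph2, Fev, Slc6a4 and Slc18a2) has a row in the table. Some libraries stood apart in the tissue they held. The summed normalized count of 3 olfactory bulb markers (Doc2g, Eomes and Cdhr1) was 3857 in CON_SAL mouse 117, 3191 in PS_DEX mouse 34, 1388 in AS_SAL mouse 14 and 1319 in PS_SAL mouse 2, against 94.9 to 776 in the other 20 libraries. These 4 had a mean centred log2 level above 2, a limit set after seeing the data. CON_DEX mouse 122 (sum 776) fell just short at 1.986, and AS_DEX mouse 38 had a sum of 498. The summed normalized count of 7 deep layer markers (such as Fezf2 and Bcl11b) was 4879 in CON_DEX mouse 101, 5008 in AS_SAL mouse 40 and 5390 in AS_SAL mouse 8, against 6449 to 11045 in the other 21. Among these 7 markers, Syt6 followed the olfactory bulb markers. It was at 1493 normalized counts in CON_SAL mouse 117, 670 in PS_DEX mouse 34, 568 in PS_SAL mouse 2 and 524 in AS_SAL mouse 14. It was at 574 in CON_DEX mouse 122 and 461 in AS_DEX mouse 38, against 111 to 279 in the remaining libraries. The deep layer sum and score are thus not fully separate from the olfactory bulb markers. Results of the 8 members that the 4 libraries high in olfactory bulb markers or the 3 low in deep layer markers move are given with and without them. For the other genes named below, fits without these libraries were not examined. Fits without the 3 libraries low in deep layer markers leave AS_SAL with mice 14 and 44 only. In such bulk tissue, fewer cells of a type and less RNA per cell cannot be told apart.

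Scaled by exon length, Htr2a was by far the most abundant receptor transcript. Its level averaged 378 ± 98.2 normalized counts per kb of exon (SD, n = 24), which was 39.5% of the sum over the 8 members and above 75.0% of the genes in the table. Htr3a (131 ± 27.6 per kb), Htr5a (129 ± 11.4) and Htr1a (111 ± 24.3) formed a middle tier. Htr7 (70.1 ± 10.1), Htr1b (59.8 ± 10.3) and Htr2c (51.7 ± 11.3) followed, and Htr1f was lowest at 27.4 ± 8.22 per kb. Htr2a exceeded Htr3a in 24 of 24 libraries, and their ranges did not overlap. All other neighbours in this order overlapped over the libraries. Htr3a and Htr5a did not differ beyond their spread, since Htr3a was the higher of the pair in 9 of 24 libraries. Htr5a exceeded Htr1a in 20 of 24 libraries and Htr1a exceeded Htr7 in 23 of 24. The Gs-coupled receptor gene Htr6, the only one of 4 further receptor genes with a row in the table, lay between Htr7 and Htr1b at 62.3 ± 10.5 per kb.

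**Figure D1:**
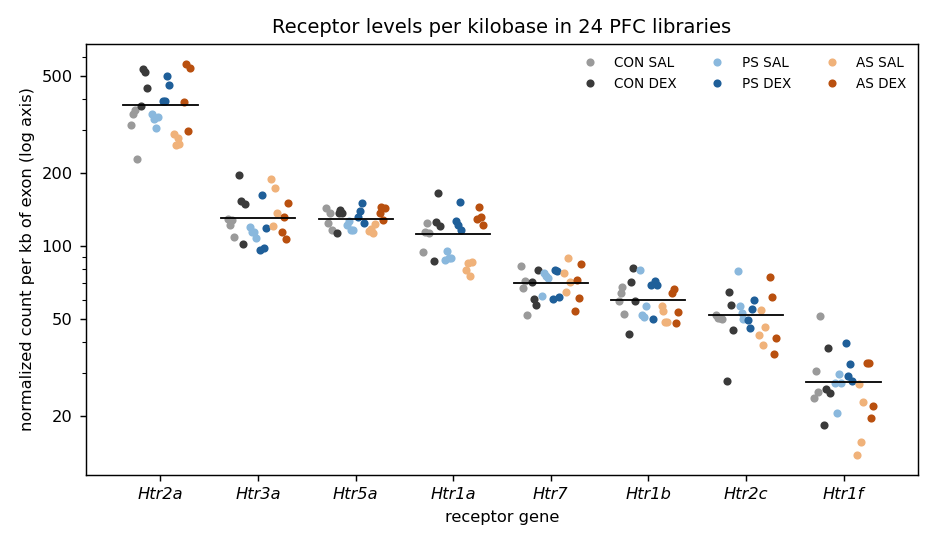
Normalized counts per kb of exon (log axis) of the 8 receptor genes, ordered by their mean; each point is 1 of 24 libraries coloured by group, and the line is the mean over all libraries. Htr2a lies above every other receptor in mean level, at 378 per kb, and Htr1f lies lowest at 27.4 per kb.

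The members also differed in how much they varied. Htr5a was the steadiest, with a coefficient of variation of 8.89% over the 24 libraries and a highest library 1.33 times its lowest. Htr7 (14.4%) and Htr1b (17.3%) came next, then Htr3a (21.1%), Htr2c (21.8%), Htr1a (21.9%) and Htr2a (26.0%). Htr1f varied most, by 30.0%, and its highest library was 3.74 times its lowest, on 30 to 157 reads. Part of this spread was shared. Over the 24 libraries, Pearson's r of log2 levels was 0.79 for Htr1a with Htr5a, 0.74 for Htr1b with Htr2c, 0.72 for Htr2a with Htr5a and 0.70 for Htr1a with Htr2a. Htr3a ran against Htr1f, with an r of -0.69. After each group's mean was removed, r fell to 0.36 for Htr1a with Htr2a, and was 0.81 for Htr1b with Htr2c and -0.66 for Htr3a with Htr1f. These values are a description of libraries that share tissue composition and treatment.

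In GRCm38, Htr2a lies on the plus strand of chromosome 14 (74640840 to 74709494) and has 3 exons, and Htr1a lies on the plus strand of chromosome 13 (105443639 to 105448122) and is a single exon. Htr5a, with 2 exons, is on chromosome 5 (27842149 to 27855088). Of the others, Htr1b (81628291 to 81633828) and Htr3a (48899213 to 48911099) are both on chromosome 9, Htr1f is on chromosome 16 (64924729 to 65105854) and Htr7 on chromosome 19 (35958734 to 36057507), all on the minus strand, and Htr2c is on the plus strand of chromosome X (146962513 to 147197277). Annotated antisense genes overlap Htr1b (D430036J16Rik, with a mean of 78.5 normalized counts) and Htr3a (Gm32335). The libraries kept strand, but the strand setting of the counting is not given in the sources used here, so reads of these overlapping pairs may be shared. The promoters of Htr1a and Htr2a, the genes whose DEX calls held in all 38 other settings in AS animals, are printed here, since the glucocorticoid receptor acts by binding DNA. They run from 250 bases before to 50 bases after the RefSeq start, 5′ to 3′, from RefSeq on GRCm38.p6. Capitals mark the hexamer TGTTCT, the core of a glucocorticoid receptor site.

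Htr1a, chr13:105443443-105443742, plus strand: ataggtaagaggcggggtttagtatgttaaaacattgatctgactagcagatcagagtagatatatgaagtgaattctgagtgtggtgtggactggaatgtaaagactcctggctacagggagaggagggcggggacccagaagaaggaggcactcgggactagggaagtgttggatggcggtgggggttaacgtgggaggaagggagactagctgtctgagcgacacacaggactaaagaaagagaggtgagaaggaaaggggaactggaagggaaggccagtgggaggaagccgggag

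Htr2a, chr14:74640624-74640923, plus strand: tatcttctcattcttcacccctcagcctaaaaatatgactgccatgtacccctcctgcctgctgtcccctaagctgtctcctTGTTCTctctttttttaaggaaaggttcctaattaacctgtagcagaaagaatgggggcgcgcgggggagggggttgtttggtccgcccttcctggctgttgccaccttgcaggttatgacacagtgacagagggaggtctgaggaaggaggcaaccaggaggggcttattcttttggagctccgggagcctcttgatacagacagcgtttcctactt

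The Htr2a promoter holds TGTTCT once, 168 bases before the start, and the Htr1a promoter holds it on neither strand. RefSeq promoters were at hand for 7 of the 8 members, all but Htr3a. Searched on both strands, TGTTCT occurs in 1 of these 7 and in 19.0% of 32851 mouse promoters of this length. The full palindromic glucocorticoid response element, which joins this hexamer to its reverse complement, occurs in 0 of the 7 and in 3 promoters in all. The GC box GGGCGG, bound by Sp1, occurs in 3 of the 7 (Htr1a, Htr2a and Htr1f) and in 35.7% of all promoters. TGACG, the core of a cAMP response element, occurs in 1 of the 7 (Htr7) and in 20.8% of all. The TATA box TATAAA occurs in none of the 7 and in 13.6% of all. Such matches describe these windows only.

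The first question was how each phenotype responded to DEX. Htr2a was the receptor gene that rose in control animals. Its normalized counts were 1759, 1944, 2022 and 1274 in CON_SAL mice 106, 107, 109 and 117, and 2106, 2990.5, 2909 and 2509 in CON_DEX mice 101, 108, 112 and 122. Every DEX library lay above every saline library, and mouse 117, the library highest in olfactory bulb markers, was the lowest. The log2 fold change was 0.60 (SE 0.16, limma, adjusted p = 0.0294), a 1.51-fold rise. Of the 8 members, 1 was called in this comparison (12.5%), where 6.49% of all genes were called and 4.03% were called higher. Without mouse 117 the fold change was 0.45 (adjusted p = 0.127) and without CON_DEX mouse 108 it was 0.53 (adjusted p = 0.107), so the call was lost without either library. With the olfactory bulb score as a covariate it was 0.60 (adjusted p = 0.0182). The groups did not overlap for 1 of 8 members, against 10.1% of all genes. Of 5 striatal markers (Drd1, Rgs9, Ppp1r1b, Tac1 and Penk), 0 passed in the control and PS comparisons, 1 passed in AS (Drd1, higher), and 2 rose over the 3 phenotypes. Their summed normalized count was 3683 to 4433 in CON_SAL and 4059 to 5652 in CON_DEX, 3551 to 4392 and 3827 to 4981 in the PS groups, and 3905 to 4539 and 4158 to 5720.5 in the AS groups. Of 5 microglial markers, P2ry12 was the only gene called in controls, and fell. P2ry12 and Cx3cr1 fell in PS and AS animals, and the summed microglial count was 6045 to 7141 and 5672 to 7465 in control, 6671 to 7203 and 5591 to 6062 in PS, and 6852 to 7789 and 5386 to 6287 in AS animals. The part of these markers in the receptor changes was not tested.

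In PS animals, DEX raised Htr1a. The PS_SAL libraries lay close together, at 389.9, 426, 399 and 400.5 normalized counts in mice 2, 28, 62 and 68, and the PS_DEX libraries were at 567, 544, 677 and 519 in mice 6, 34, 52 and 56. The groups were thus clearly apart, and the log2 fold change was 0.51 (SE 0.13, limma, adjusted p = 0.0234), a 1.42-fold rise. Htr1a was the only member called, 12.5% of the 8 against 5.36% of all genes called and 2.74% called higher. Htr2a did not overlap between the PS groups either, at 1710.2 to 1952 normalized counts with saline and 2211 to 2807 with DEX. Its log2 fold change of 0.40 (SE 0.16) had an adjusted p of 0.219 and a 95% interval of 0.07 to 0.73. Non-overlapping groups occurred for 2 of 8 members and for 10.1% of all genes. A fit to the 2 PS groups alone called Htr2a (adjusted p = 0.0188), as did the fit without AS_DEX mouse 60 (adjusted p = 0.0926). Htr5a had 645 ± 27.7 normalized counts in PS_SAL and 731 ± 58.8 in PS_DEX (SD, n = 4), a log2 fold change of 0.18 with an adjusted p of 0.289.

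The 7 deep layer markers were higher with DEX in the same PS animals, by 0.09 to 0.60 on the log2 scale. Of 5 upper layer markers 0 were called, with a median log2 change of -0.13. Of 5 claustrum and layer 6b markers 1 was called lower, with a median of -0.18. Over all genes 5.36% were called. The summed normalized count of the 7 deep layer markers was 6565 to 7812 in PS_SAL and 8405 to 9609 in PS_DEX, and Bcl11b, a factor of subcortically projecting neurons, was the only one of them called (log2 fold change 0.60, SE 0.18, adjusted p = 0.0714). With the deep layer score as a covariate the fold change of Htr1a was 0.39 (adjusted p = 0.0868) and that of Htr2a was 0.48 (adjusted p = 0.138). The score is made of genes that were themselves higher with DEX in PS and AS animals. Fits with it therefore cannot separate a tissue difference from the DEX response. The score also holds Syt6, which followed the olfactory bulb markers, so it is not a measure of deep layers alone. Without the 4 libraries high in olfactory bulb markers, which include PS_SAL mouse 2 and PS_DEX mouse 34, Htr1a had a fold change of 0.52 (adjusted p = 0.124). Without PS_SAL mice 2 and 62 it was 0.47 (adjusted p = 0.226), in a fit that left PS_SAL with mice 28 and 68 only. Mouse 62 was not among the libraries that stood apart in olfactory bulb or deep layer markers.

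In AS animals, Htr1a, Htr2a and Htr5a rose with DEX. Htr1a was at 355, 382, 338 and 386 normalized counts in AS_SAL mice 8, 14, 40 and 44, and at 576, 649, 589 and 546 in AS_DEX mice 38, 42, 60 and 72. The groups lay far apart, with a log2 fold change of 0.69 (SE 0.13, limma, adjusted p = 0.00145), a 1.61-fold rise. Htr2a was at 1617, 1458, 1561 and 1469 in AS_SAL and at 2197, 3149, 1661 and 3031 in AS_DEX. The saline libraries were tight, while AS_DEX mouse 60 lay just above them and mice 42 and 72 were the highest of all 24 libraries. The log2 fold change of Htr2a was 0.67 (SE 0.16, adjusted p = 0.0108), or 1.59-fold. Htr5a was at 618, 629, 605 and 659 in AS_SAL and at 731, 776, 684 and 768 in AS_DEX. This was a small but non-overlapping shift, with a log2 fold change of 0.24 (SE 0.08, adjusted p = 0.0772), or 1.18-fold. In all, 3 of 8 members were called in AS animals (37.5%), against 8.77% of all genes and 3.82% called higher, and the same 3 were those whose groups did not overlap (9.02% of all genes).

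In control animals the 7 deep layer markers had log2 changes of -0.59 to -0.008 with DEX, and 0 were called. Their summed counts were 7309 to 11045 in CON_SAL and 4879 to 9084 in CON_DEX. The sum of 11045 was that of CON_SAL mouse 117, the library highest in olfactory bulb markers. The PS and AS responses of these markers exceeded the control response by 0.33 to 1.13 and 0.28 to 1.16, and 0 differences were called. In AS animals, as in PS animals, deep layer markers were higher with DEX. Rprm and Bcl11b were called among the 7 (log2 fold changes 0.89 and 0.75), where 8.77% of all genes were called. The summed counts overlapped, at 5008 to 8291 in AS_SAL and 6449 to 10931 in AS_DEX. With the deep layer score as a covariate, the fold changes of Htr1a and Htr2a were 0.56 (adjusted p = 0.00705) and 0.76 (adjusted p = 0.00752). Without the 3 libraries low in deep layer markers they were 0.62 (adjusted p = 0.0102) and 0.73 (adjusted p = 0.0625). The call of Htr5a was lost in both settings (adjusted p = 0.176 and 0.408), with fold changes of 0.22 and 0.20. It was lost as well with library size as a covariate and in the fit to only the groups compared. It was also lost without any of AS_SAL mice 8, 14 or 40 or AS_DEX mice 38, 42 or 72, with fold changes of 0.21 to 0.24 and adjusted p from 0.119 to 0.21. Among the vascular markers, 4 of 6 endothelial and 3 of 6 mural cell genes fell in AS animals, where 8.77% of all genes were called. The summed endothelial count was 4175 to 6805 in AS_SAL and 2905 to 4336 in AS_DEX. In controls 0 of either list were called, with median log2 changes of 0.15 (endothelial) and 0.36 (mural). In PS animals 1 of 6 endothelial and 0 of 6 mural genes fell, with medians of -0.43 and -0.31. Of 4 oligodendrocyte markers (Mbp, Mog, Mag and Mobp), 1 rose in AS animals, Mobp, with a log2 fold change of 0.96, and the summed count was 11892 to 19607 in AS_SAL and 18623 to 29188 in AS_DEX. In controls 1 of these 4 was called lower, with summed counts of 17793 to 28930 in CON_SAL and 16577 to 22574 in CON_DEX. In PS animals 0 were called, at 13462 to 20635 in PS_SAL and 19363 to 24254 in PS_DEX. The part of these vascular and oligodendrocyte markers in the receptor changes was not tested.

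**Figure D2:**
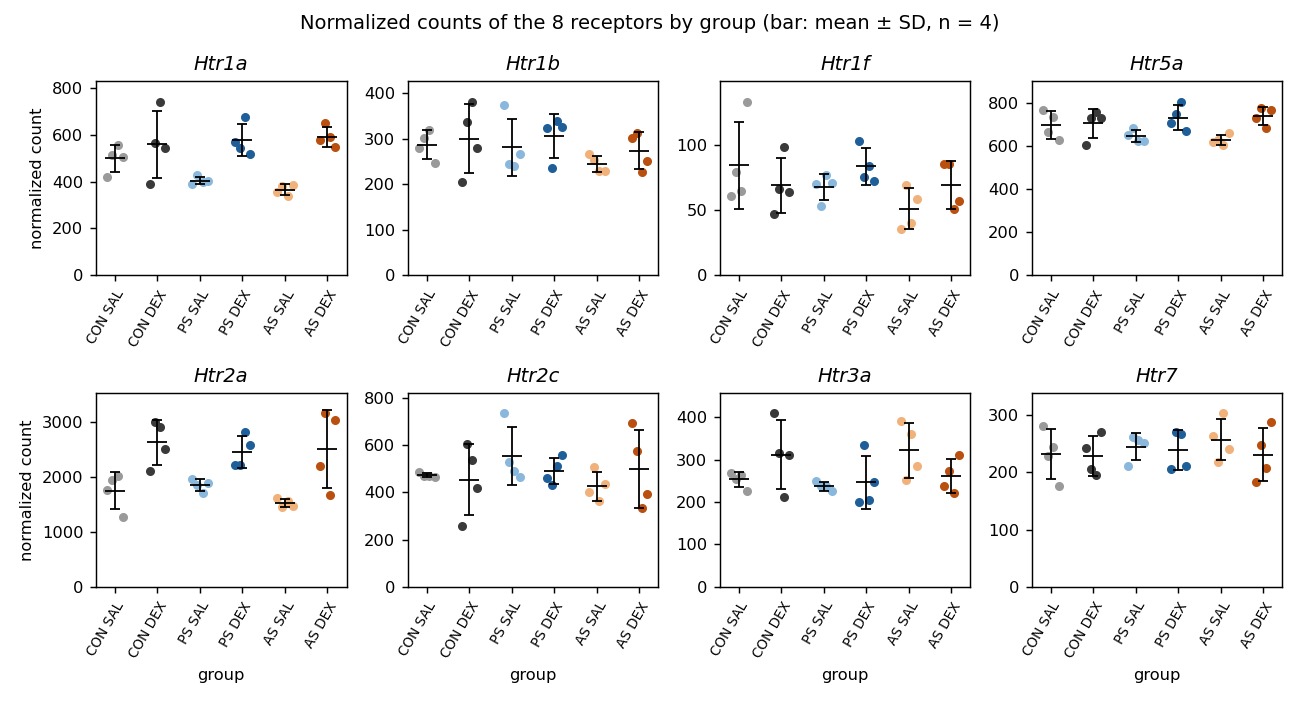
Normalized counts of the 8 receptor genes in the 6 groups; each point is 1 library and the bars are the mean ± SD (n = 4), on axes that start at 0. The Htr1a libraries of PS_SAL (389.9 to 426) and AS_SAL (338 to 386) all lie below the PS_DEX and AS_DEX libraries, and Htr2a is higher in the DEX than in the saline group of every phenotype.

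Averaged over the 3 phenotypes, which uses all 24 libraries, DEX raised Htr2a by 0.56 (SE 0.09, limma, adjusted p = 0.00011), Htr1a by 0.44 (SE 0.07, adjusted p = 0.000137) and Htr5a by 0.14 (SE 0.04, adjusted p = 0.0369) on the log2 scale. These 3 of 8 members (37.5%) compare with 15.5% of all genes called and 7.46% called higher. The median log2 change over the 8 members was 0.12, beside -0.002 over all genes. The other 5 members were not called. The 95% intervals of their average log2 change were -0.09 to 0.30 for Htr1b, -0.14 to 0.46 for Htr1f, -0.29 to 0.22 for Htr2c, -0.21 to 0.21 for Htr3a and -0.26 to 0.11 for Htr7. The call of Htr5a was lost without PS_SAL mice 2 and 62 (adjusted p = 0.104) and without the libraries high in olfactory bulb markers (adjusted p = 0.145). Within the Gi/o-coupled genes Htr1a and Htr5a were called and Htr1b and Htr1f were not called, and within the Gq-coupled pair Htr2a was called and Htr2c was not called. Whether any receptor responded more than another was not tested. Htr6 had a log2 change of -0.08 (adjusted p = 0.7).

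**Figure D3:**
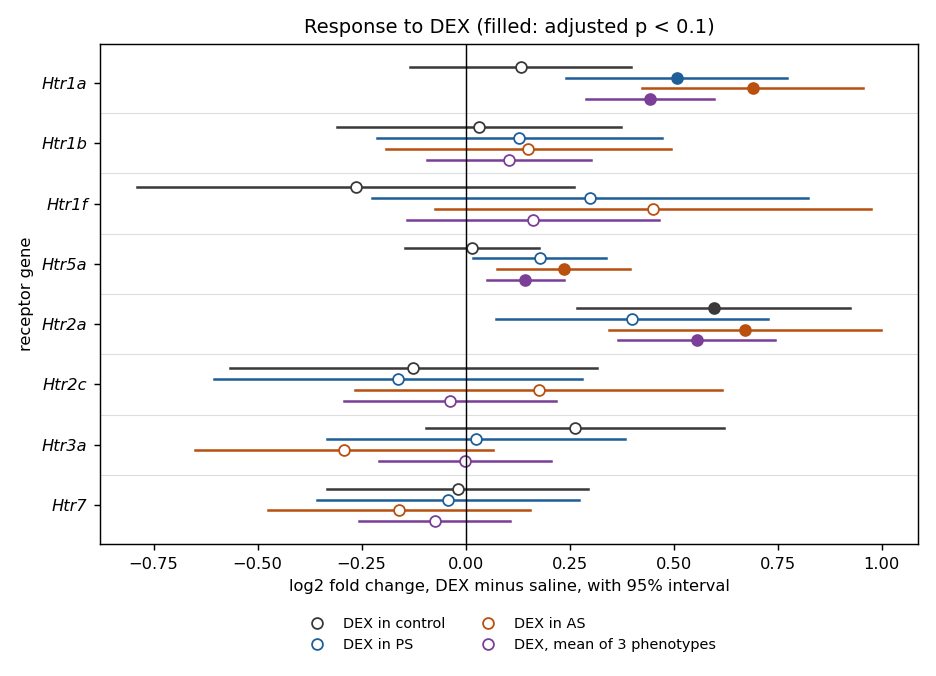
Log2 fold change of DEX against saline for each receptor gene in control, PS and AS animals and as the mean of the 3 phenotypes, with 95% intervals; filled points have an adjusted p under 0.1. Htr2a is called in control and AS animals, Htr1a in PS and AS animals and Htr5a in AS animals, and all 3 are called in the mean.

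The second question was whether CSDS itself set receptor levels apart in saline-treated animals. No member passed the threshold in any of these comparisons. Between PS and control animals 0 of 8 members were called, against 1.51% of all genes, and 1 of 8 had an unadjusted p under 0.05. Groups did not overlap for 0 of 8 members, against 11.3% of all genes. Between AS and control animals it was 0 of 8, against 0.156% of all genes, with 2 of 8 at an unadjusted p under 0.05. Over all genes, 1850 and 1548 had an unadjusted p under 0.05 in these comparisons. DESeq2 called 1 member between AS and control animals, among 99 of 14074 genes in that fit, against 22 with limma. That gene was Htr1a. Its normalized counts were 421, 513, 557 and 506 in CON_SAL mice 106, 107, 109 and 117, all above the 338 to 386 of AS_SAL. The PS_SAL libraries (389.9 to 426) lay above AS_SAL and overlapped the lowest control. The log2 difference was -0.44 for AS against control (SE 0.13, 95% interval -0.71 to -0.18, limma, adjusted p = 0.235) and -0.30 for PS against control (95% interval -0.56 to -0.03, adjusted p = 0.315). With DESeq2 the AS difference had an adjusted p of 0.0981, and without CON_DEX mouse 101, which is in neither group but shares the estimate of the spread, 0.0745. Htr1a was the only member whose AS_SAL and CON_SAL libraries did not overlap, as 6.51% of all genes did not. With the deep layer score as a covariate the difference was -0.32 (adjusted p = 0.525).

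Htr1f had the largest saline difference. It was at 60.7, 78.7, 64.5 and 133 normalized counts in the 4 CON_SAL libraries and at 35.4, 69.3, 40.2 and 58.6 in AS_SAL mice 8, 14, 40 and 44. The groups overlapped, and the log2 difference was -0.69 (SE 0.25, adjusted p = 0.326). Without CON_SAL mouse 117 it was -0.45 (adjusted p = 0.458), and without the 3 libraries low in deep layer markers -0.32 (adjusted p = 0.65). The highest control was mouse 117, high in olfactory bulb markers, and the lowest 2 AS_SAL libraries were mice 8 and 40, low in deep layer markers. Htr3a showed the opposite order, at 391, 251, 361 and 285 in AS_SAL and 225 to 249.7 in PS_SAL. These AS_SAL and PS_SAL groups did not overlap, with a log2 difference of 0.42 (SE 0.17, adjusted p = 0.934), and the highest AS_SAL libraries were again mice 8 and 40. Without the 3 libraries low in deep layer markers the difference was 0.18 (adjusted p = 0.931). CON_DEX mouse 101, the third library low in deep layer markers, had the highest Htr3a (409) and the lowest Htr2c (259) and Htr1b (205) of all 24. Between AS_SAL and PS_SAL, 0 of 8 members and 0% of all genes were called, with limma at an adjusted p under 0.1, and 671 genes and 1 member had an unadjusted p under 0.05. Groups did not overlap for 3 of 8 members there (Htr1a, Htr2a and Htr3a) and for 5.22% of all genes. Htr2a was lower in AS_SAL (1458 to 1617) than in PS_SAL (1710.2 to 1952), with a log2 difference of -0.28 (95% interval -0.61 to 0.05, adjusted p = 0.934).

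After DEX, no member was called between PS_DEX and CON_DEX (0.199% of all genes), AS_DEX and CON_DEX (0.867%) or AS_DEX and PS_DEX (0%, with 580 genes at an unadjusted p under 0.05), and 0 of 8 members had an unadjusted p under 0.05 in any of the 3. Groups did not overlap for 0 of 8 members in each, against 7.26%, 7.09% and 1.71% of all genes. Htr1a averaged 559 ± 144 normalized counts in CON_DEX, 577 ± 69.9 in PS_DEX and 590.0 ± 43.3 in AS_DEX (SD, n = 4). Htr2a averaged 2629 ± 407, 2452 ± 290.3 and 2509 ± 707. The libraries were widely spread within the DEX groups. CON_DEX ran from 388 to 740.1 for Htr1a, and AS_DEX from 1661 to 3149 for Htr2a. The widest DEX difference was Htr3a in PS_DEX against CON_DEX, at -0.33 (95% interval -0.69 to 0.03, adjusted p = 0.397).

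The third question was whether the response to DEX itself differed between phenotypes. The test of that difference, the interaction, called 0 of 8 members for PS against control (0% of all genes, with 1404 genes and 0 members at an unadjusted p under 0.05), 0 of 8 for AS against control (0.348%, with 1902 genes and 2 members at an unadjusted p under 0.05) and 0 of 8 for AS against PS (0%, with 344 genes and 0 members at an unadjusted p under 0.05). The largest interaction relative to its error was that of Htr1a. Its DEX response in controls was 0.13 (95% interval -0.13 to 0.40, adjusted p = 0.72), on the values of 388, 564, 740.1 and 543 normalized counts in CON_DEX mice 101, 108, 112 and 122. This response was 0.29 without mouse 101 (adjusted p = 0.184) and -0.02 without mouse 112 (adjusted p = 0.972). The AS response exceeded the control response by 0.56 (SE 0.18, 95% interval 0.18 to 0.93, limma, adjusted p = 0.172), and the PS response exceeded it by 0.37 (95% interval -0.001 to 0.75, adjusted p = 0.5). Without CON_DEX mouse 112, the highest Htr1a library of all, the AS difference was 0.70 (adjusted p = 0.0375), and without CON_DEX mouse 101 it was 0.39 (adjusted p = 0.393). Without all 3 libraries low in deep layer markers, which leaves AS_SAL mice 14 and 44, it was 0.32 (adjusted p = 0.998). With the deep layer score as a covariate it was 0.36 (adjusted p = 0.733). The PS difference was 0.21 without mouse 101 (adjusted p = 0.736). This interaction and the saline difference above share the CON_SAL and AS_SAL libraries. For Htr2a the AS response differed from control by 0.08 (95% interval -0.39 to 0.54) and the PS response by -0.20 (95% interval -0.66 to 0.27). Calls of Htr2a in control and AS animals but not in PS animals therefore do not show that the responses differ. Htr3a had an AS interaction of -0.55 (SE 0.25, adjusted p = 0.318), from log2 changes of 0.26 in controls and -0.29 in AS animals, and without CON_DEX mouse 112 it was -0.73 (adjusted p = 0.0904). Without the 3 libraries low in deep layer markers it was -0.17 (adjusted p = 0.998).

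**Figure D4:**
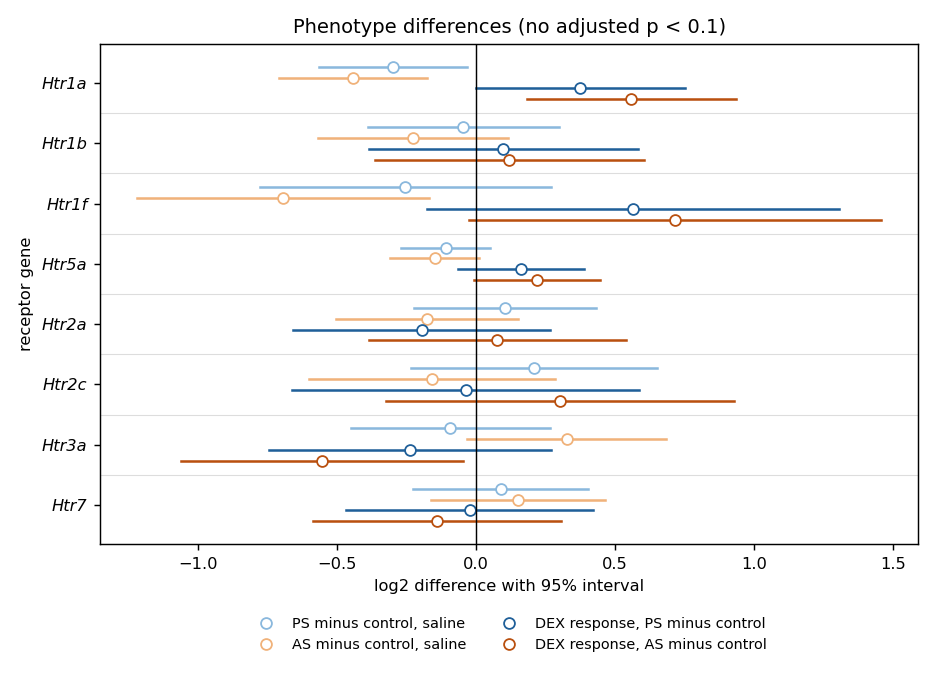
Log2 differences of PS and AS against control with saline, and differences of their DEX responses from that of control, with 95% intervals; open points have an adjusted p of 0.1 or more. For Htr1a the saline difference of AS (-0.44) and its DEX interaction (0.56) lie on opposite sides of 0, both with intervals that exclude 0 before adjustment over all genes.

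Htr1b, Htr7 and Htr2c had no unadjusted p under 0.05 in any of the 13 comparisons. Htr1b averaged 245 ± 18.4 normalized counts in AS_SAL and 306 ± 47.7 in PS_DEX (SD, n = 4), its lowest and highest group means. Htr7 averaged 228 ± 34.3 in CON_DEX and 256 ± 35.8 in AS_SAL. Htr2c, whose transcript is edited and spliced in several forms that a gene count cannot separate, averaged 426 ± 61.1 in AS_SAL and 554 ± 122 in PS_SAL, the latter raised by mouse 2 (733 against 465 to 527 in mice 28, 62 and 68). The CON_SAL libraries of Htr2c were nearly alike, at 464 to 485. The heat map of centred levels shows these patterns library by library beside the tissue scores.

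**Figure D5:**
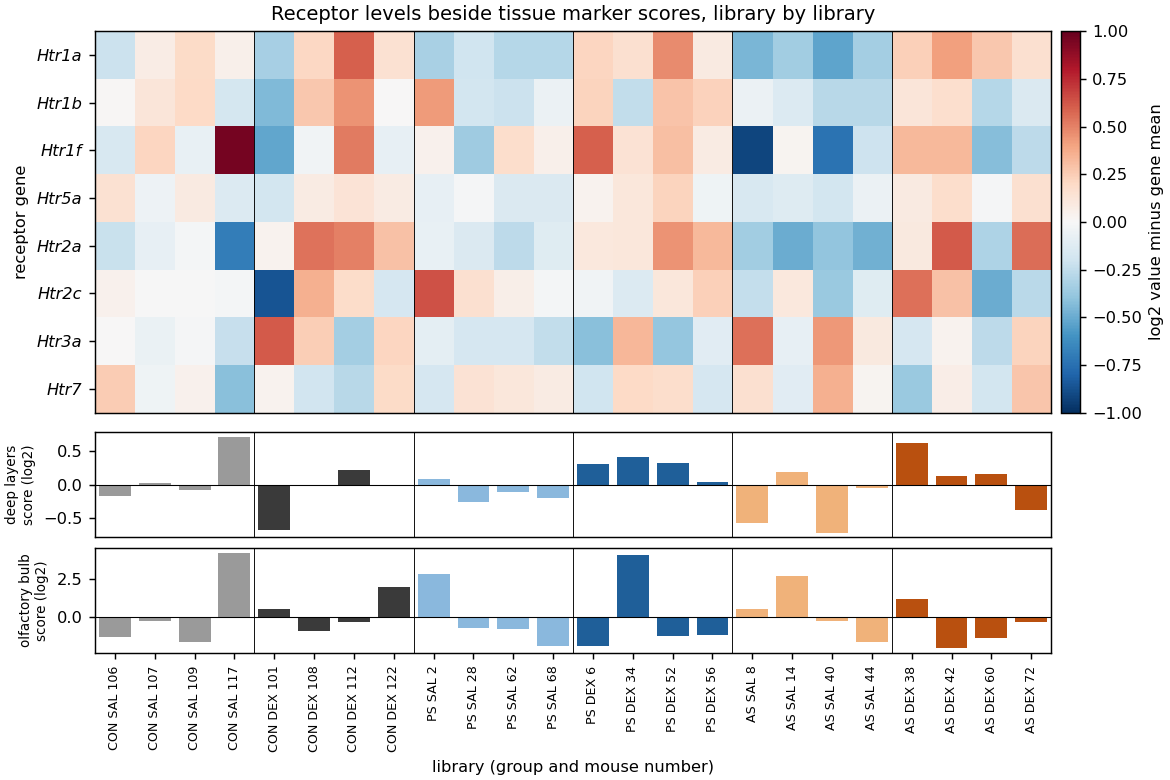
Top, log2 level of each receptor gene minus its mean over the 24 libraries (red higher, blue lower); below, the mean centred log2 level of 7 deep layer and 3 olfactory bulb markers in the same libraries, coloured by group. Htr1a is low in all AS_SAL libraries, and the 3 libraries with a deep layer score below -0.5 (CON_DEX 101, AS_SAL 8 and AS_SAL 40) are high in Htr3a and low in Htr1f.

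Other genes of serotonin signalling were read from lists by role. Of the genes for synthesis, storage, uptake and breakdown, 8 of 14 have a row in the table. Ddc, the decarboxylase that makes serotonin and dopamine, rose with DEX in every phenotype. Its normalized counts were 80.6 ± 17.1 with saline and 161 ± 13.2 with DEX in control animals (SD, n = 4). The corresponding means were 80.5 ± 6.61 and 152 ± 23.5 for PS, and 78.5 ± 20.1 and 136 ± 21.0 for AS. The groups did not overlap in any phenotype, with log2 fold changes of 1.01, 0.90 and 0.81 (limma, adjusted p = 0.000365, 0.00144 and 0.00336). Maoa, the oxidase that degrades serotonin, fell in PS animals from 883 ± 15.8 to 758 ± 49.6 (log2 fold change -0.22, adjusted p = 0.0589), and was at 821 and 824 in control and 844 and 828 in AS animals. No gene of this list was called in a saline comparison or an interaction by limma, at an adjusted p under 0.1.

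Of the Gi/o list, which holds G protein subunits, potassium channel subunits and regulators of G protein signalling, 17 of 18 genes have a row. Over the 3 phenotypes 7 of 17 fell with DEX and 0 rose, beside 8.01% of all genes called lower, and the median log2 change of the list was -0.11. Kcnj9, a subunit of the channel that 5-HT1A receptors open, fell from 5009.9 ± 404 to 4073 ± 231 normalized counts in control (log2 fold change -0.30, adjusted p = 0.0118) and from 5141 ± 394 to 4393 ± 159 in PS animals (-0.22, adjusted p = 0.0781). In AS animals it was at 5138 ± 502 and 4693 ± 161 (-0.13, adjusted p = 0.357). Rgs19, which speeds the shut-off of Gi proteins, fell in controls (-0.26, adjusted p = 0.037), and Rgs20 fell in PS animals (-0.28, adjusted p = 0.0664).

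Of the Gq list, 11 of 14 genes have a row, and 2 rose and 0 fell over the 3 phenotypes, near the 15.5% of all genes called there. Itpr2, an intracellular calcium channel opened by the product of phospholipase C, rose in controls from 697 ± 39.7 to 947 ± 111 normalized counts (log2 fold change 0.44, adjusted p = 0.00737). Plcb4, a phospholipase C, rose in AS animals from 1969.9 ± 48.1 to 2626 ± 251 (0.41, adjusted p = 0.00279). It was the only gene of these lists called in an interaction, with an AS response that exceeded the control response by 0.48 (SE 0.12, adjusted p = 0.0972). Itpr3 fell in AS animals by 0.85 on the log2 scale (adjusted p = 0.0115). Of the Gs list, 19 of 19 genes have a row, and 1 rose and 2 fell over the 3 phenotypes, again near the share of all genes (15.5%). Adcy8, an adenylyl cyclase, fell in controls from 621 ± 169 to 346 ± 59.0 (-0.82, adjusted p = 0.00196). Prkar2b, a regulatory subunit of protein kinase A, fell by 0.19 over the phenotypes (adjusted p = 0.00888), and Rapgef3, a cAMP-activated exchange factor, rose by 0.18 (adjusted p = 0.0849).

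Among partners, desensitization and editing genes, 16 of 17 have a row, and 1 rose and 2 fell over the phenotypes, beside 15.5% of all genes called. Grk5, a kinase that desensitizes receptors, fell in PS animals from 740.4 ± 33.1 to 529.7 ± 19.1 normalized counts (log2 fold change -0.48, adjusted p = 0.00182) and in AS animals from 776 ± 58.5 to 539 ± 64.7 (-0.53, adjusted p = 0.000589), and had a change of -0.20 in controls (adjusted p = 0.284). Cav1, which encodes a scaffold of caveolae abundant in endothelium, fell in AS animals (-0.64, adjusted p = 0.0145), along with the endothelial markers above. Grk3, a second receptor kinase, rose in controls (0.26, adjusted p = 0.077). Of 14 transcription factors known to act on Htr1a or Htr2a, 13 have a row. Nr3c1, the glucocorticoid receptor, fell in control (-0.50, adjusted p = 0.00275) and PS animals (-0.38, adjusted p = 0.0296), and its change in AS animals was -0.28 (adjusted p = 0.105). Nr3c2, the mineralocorticoid receptor, fell in control, PS and AS animals, with log2 fold changes of -0.29, -0.35 and -0.27. No other factor on the list was called under DEX.

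The genes most alike each receptor over the 24 libraries were picked by Pearson's r of log2 levels among the 12018 genes whose mean normalized count reached 100. For Htr1a they were Ppargc1a (r = 0.90) and Prickle1 (r = 0.88), and for Htr2a Map4k3 and Atf6 (r = 0.94 each). Htr5a was most like Map2k4 (r = 0.85) and Syt13 (r = 0.84), and Htr1b most like Tenm1 and Scn7a (r = 0.84 and 0.83). The remaining nearest genes were Rnf152 for Htr1f (r = 0.87), Usp46 for Htr2c (r = 0.84), Cpne5 for Htr3a (r = 0.84) and Rgs6 for Htr7 (r = 0.75). With group means removed, r was 0.79 for Htr1a with Ppargc1a and 0.89 for Htr2a with Map4k3. These libraries share treatment and tissue composition, so the values are descriptive.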

How the data were processed

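PFC RNA of 24 mice was sequenced as strand-specific, paired-end poly(A) libraries, and samples were grouped by their labels. The authors trimmed reads with fastp 0.20.1, aligned them to mm10 with HISAT2 2.2.1, counted them with featureCounts (Subread 2.0) on the GENCODE vM22 annotation and divided the counts by DESeq2 1.36.0 size factors. The deposited signal is therefore a count divided by a size factor per library, called a normalized count here. Whole reads were recovered for 100.0% of values (tolerance 0.01 read). The alignment and the size factors are part of every value, and reads on overlapping genes cannot be reassigned. The authors' tables of fold changes and p-values were not used.

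Log2(normalized count + 1) was tested with limma 3.58.1 (R 4.3.3, trend), with a mean per group, all 24 libraries and Benjamini-Hochberg adjustment over 14074 genes, without a filter on low values, so that 8 of 8 members were tested. Genes with an adjusted p under 0.1 were called. Fold changes on this scale understate the change of low genes. There were 13 comparisons: PS and AS against control and each other under saline and DEX, DEX in each phenotype and over the 3, and the interactions. All pairs of libraries of a group differed by more than sampling noise (chi-square per gene 5.74 to 81.8). P-values are for differences between mice. Marker scores are mean centred log2 levels. Alternatives were a pseudocount of 8, a mean of at least 100, at least 10 reads in each library, quantile and TMM scaling, only the groups compared, library size as a covariate, edgeR 4.0.16 and DESeq2 1.42.0 on recovered reads, PS_SAL mice 2 and 62 left out, and each library left out. Alternatives on the olfactory bulb and deep layer markers were chosen after seeing the data. The scripts were tested on simulated data.

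Coordinates, exon lengths and exon numbers are from GENCODE vM21 (GRCm38), which matched 14061 of 14074 genes, 13927 of them in the same version. The members and gene lists were chosen with earlier results of these data known. All members were named, and from each list up to 3 called genes by smallest adjusted p, plus genes set beside a result. Some marker genes are not reported here.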

Additional observations from a re-analysis of the deposited data

Results flagged for a closer look

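In PS_DEX mouse 34, Htr1b was at 235.26 normalized counts, against 324.62 to 338.71 in the other 3 PS_DEX libraries. The gap was 0.864 of the group's range, past Dixon's critical value for 4 samples. Of 48 groups of 4 libraries of a member, 1 was flagged, and chance flags about 1 in 20. This library was the second highest in olfactory bulb markers, with a summed normalized count of 3191.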

How the results depend on the processing

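Of 104 pairs of a member and a comparison, 8 were called, and Htr1a and Htr2a, under DEX in AS animals and over the 3 phenotypes, were called in all 38 other settings. The 88 pairs with an unadjusted p of 0.05 or more were called in 0 of these settings, and no named result reversed. Between AS and control animals with saline, 1 member was called with DESeq2 (99 genes in all, 22 with limma), and 0 to 1 with a library left out. For DEX in control animals, 0 were called without the 4 libraries high in olfactory bulb markers (Htr2a 0.45, adjusted p = 0.152, and 774 genes in all, against 913), and 0 to 1 with a library left out. For DEX in PS animals, 2 were called with only the groups compared, 0 without PS_SAL mice 2 and 62, 0 without the libraries high in olfactory bulb markers (808, 335 and 415 genes in all, against 755), and 1 to 2 with a library left out. For the AS interaction, 0 to 2 were called with a library left out, 2 without CON_DEX mouse 112 (664 genes in all, against 49). Htr5a under DEX in AS animals lost its call in 7 of 14 settings (adjusted p up to 0.408) and in 6 of 24 fits with a library left out. Over the 3 phenotypes, Htr5a lost it without PS_SAL mice 2 and 62 (0.14, adjusted p = 0.104) and without the libraries high in olfactory bulb markers (0.12, adjusted p = 0.145). The cause of these changes in calls was not tested. No paired analysis was possible because mouse numbers do not recur between groups. Htr1f, with 30 to 157 reads a library, was measured with the least precision.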
